A study of Mus musculus with 8 samples.

Results

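The genes described here are 10 genes of glucose uptake and glycolysis in primary mouse limb bud cells, namely Slc2a1, Hk1, Hk2, Pfkp, Aldoa, Pgk1, Eno1, Ldha, Pdk1 and Pgam1. They were found in the deposited array table by the gene symbol that the platform annotation gives each probe. Of 25697 probes on each array, 11 carried 1 of these symbols and covered 9 of the 10 genes. Eno1 had no probe under that symbol and was not analysed here. Pfkp had 3 probes and each other gene had 1. The cells were isolated at embryonic day 11.5 from the buds of fore- and hindlimbs, from mice of the strain labelled 129XB6-Sox4fl/fl11fl/fl, so that the cells of every group carried floxed alleles of the transcription factor genes Sox4 and Sox11. After 6 h in culture, 3 samples received an adenovirus expressing Cre recombinase for 24 h (AdCre, AdeCre and mutant in the labels). A further 3 received an adenovirus expressing LacZ for 24 h (AdLacZ, AdeLacZ and control in the labels), and 2 were left untreated (labelled wild type). Each sample was hybridised to 1 Illumina bead array, and nothing states that replicates were separate cultures or litters, so that p values speak only to array-to-array spread, which may be technical.

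Glucose enters cells through facilitative transporters such as the product of Slc2a1 (GLUT1), is trapped by hexokinase, and is split and oxidised to pyruvate by the enzymes of glycolysis. Lactate dehydrogenase turns pyruvate into lactate, whereas pyruvate dehydrogenase feeds it to mitochondria and is switched off by pyruvate dehydrogenase kinases such as Pdk1. Many genes of this route are known targets of the hypoxia-inducible factor HIF-1, which binds DNA at sites that often hold the core ACGTG. Embryonic limb mesenchyme is known for a high rate of glycolysis.

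The promoter stretches of the 3 members that passed a test in any comparison, and of Ldha as one that passed in none, are printed here to place this core beside the array results. Each line gives the 250 bases before the annotated start, taken 5′ to 3′ on the strand of the gene from RefSeq (build GRCm38.p6), with every ACGTG or its reverse complement CACGT in capitals. The stretches are chr4:119108495-119108744 (plus strand) for Slc2a1, chr6:82774455-82774704 (minus strand) for Hk2, chrX:106186850-106187099 (plus strand) for Pgk1 and chr7:46845554-46845803 (plus strand) for Ldha.
Slc2a1: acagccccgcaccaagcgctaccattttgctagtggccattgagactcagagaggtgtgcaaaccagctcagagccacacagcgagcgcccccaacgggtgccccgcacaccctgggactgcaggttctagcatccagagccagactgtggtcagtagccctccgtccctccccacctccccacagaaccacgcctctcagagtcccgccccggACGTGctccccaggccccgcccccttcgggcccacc
Hk2: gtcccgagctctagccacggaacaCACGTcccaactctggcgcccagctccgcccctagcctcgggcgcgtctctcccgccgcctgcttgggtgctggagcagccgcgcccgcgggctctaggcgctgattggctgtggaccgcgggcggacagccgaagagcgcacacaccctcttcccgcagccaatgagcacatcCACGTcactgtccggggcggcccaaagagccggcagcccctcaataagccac
Pgk1: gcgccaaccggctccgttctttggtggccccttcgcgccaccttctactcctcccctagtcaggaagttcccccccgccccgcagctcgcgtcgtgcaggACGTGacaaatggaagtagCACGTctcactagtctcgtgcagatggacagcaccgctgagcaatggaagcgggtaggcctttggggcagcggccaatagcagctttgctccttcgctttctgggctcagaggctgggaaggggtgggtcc
Ldha: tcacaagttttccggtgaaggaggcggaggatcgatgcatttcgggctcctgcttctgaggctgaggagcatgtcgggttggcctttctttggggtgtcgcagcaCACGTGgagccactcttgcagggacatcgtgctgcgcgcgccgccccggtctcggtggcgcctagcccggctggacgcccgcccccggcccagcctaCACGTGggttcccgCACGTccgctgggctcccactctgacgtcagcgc
The core was present on either strand in 7 of 17 annotated promoter stretches of the 10 genes, and in 16.6% of the 32851 stretches of the same length in the RefSeq table. Both Aldoa stretches with a match overlap and hold the same site. By gene, 6 of 10 held the core, against 18.5% of the 27025 genes in that table. With 17 stretches for 10 genes, against 32851 for 27025, more bases were searched per member gene. A palindromic CACGTG counts on both strands. Slc2a1 had 1 match and Hk2 and Pgk1 had 2 each, whereas the printed Ldha stretch had 5 matches, of which 4 came from 2 palindromes. The other annotated Ldha stretch had 0. Of the further members that passed no test, Aldoa and Pgam1 had a match, whereas Hk1, Pfkp and Pdk1 had none. The members with a match thus include genes that passed a test and genes that did not. No other form of the HIF-1 site was searched, and a match is only a description of these letters.

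Values are intensity units of the deposited table, and changes are on the log2 scale after a background correction that adds 16 units and so shrinks the changes of dim probes. The detection floor, the level below which a probe could not be told from background, lay at 8.87 to 8.93 units. A probe was tested when 2 or more of the 8 arrays read above the floor, which held for 15944 probes and for 10 of the 11 member probes. The number of arrays limits the precision, and log2 changes had a median standard error of 0.119 between the virus arms and 0.134 against untreated cells. Of the floxed genes only Sox4 was looked at here. Sox4 gave 10.9, 11.8 and 12.9 units in AdCre cells, against 66.5, 75.9 and 78.1 units in AdLacZ cells (log2 change -1.31 ± 0.13, SE, limma adjusted p = 0.00114). Where its probe lies relative to the deleted part is not known here. All 12 limb mesenchyme marker genes with a probe, of 13 looked for, were tested. Between the virus arms 2 of them fell and 0 rose, 1 rose and 1 fell in AdLacZ against untreated cells, and 1 rose and 3 fell in AdCre against untreated cells. Over all tested probes 5.03%, 5.23% and 13.7% passed in the same order. The summed intensity of 5 surface ectoderm markers was 1236 to 1344 units in AdCre cells, 877 to 1045 units in AdLacZ cells and 894 to 932 units in untreated cells. Of these 5, 1 rose and 0 fell in AdCre against AdLacZ cells. In AdLacZ against untreated cells 1 rose and 0 fell, with 3 positive and 2 negative changes. In AdCre against untreated cells 2 rose and 0 fell. Over all tested probes 1.59%, 2.73% and 6.61% rose in the same order. Krt14 read 65.5 to 83.5 units in AdCre cells, 50.6 to 75.7 units in AdLacZ cells and 11.6 and 20.6 units in untreated cells. The summed intensity of 4 endothelial markers was 134 to 153 units in AdCre cells, 172 to 179 units in AdLacZ cells and 210.4 and 209.6 units in untreated cells. Of the 4, Tek alone was lower in both virus arms than in untreated cells, where it read 136.7 and 116.8 units. The other 3 (Kdr, Emcn and Esam) had positive changes there and were dim, each under the floor on some arrays. Pecam1, Cdh5 and Tie1 were not above the floor on enough arrays to be tested. The part of limb mesenchyme, surface ectoderm and endothelial cells in the member values was not tested. The 2 untreated arrays differed from each other in the interferon-induced gene Isg15. Isg15 read 639 to 867 units in AdCre cells and 888 to 1455 units in AdLacZ cells, against 40.4 units in untreated replicate 1 and 208.9 units in untreated replicate 2. For calls against untreated cells on member probes and on the brightest probe of other pathway genes, the arrays whose removal ended the call are named beside it. Calls on further probes of a gene and on cell type markers were not refitted without single arrays.

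**Figure D1:**
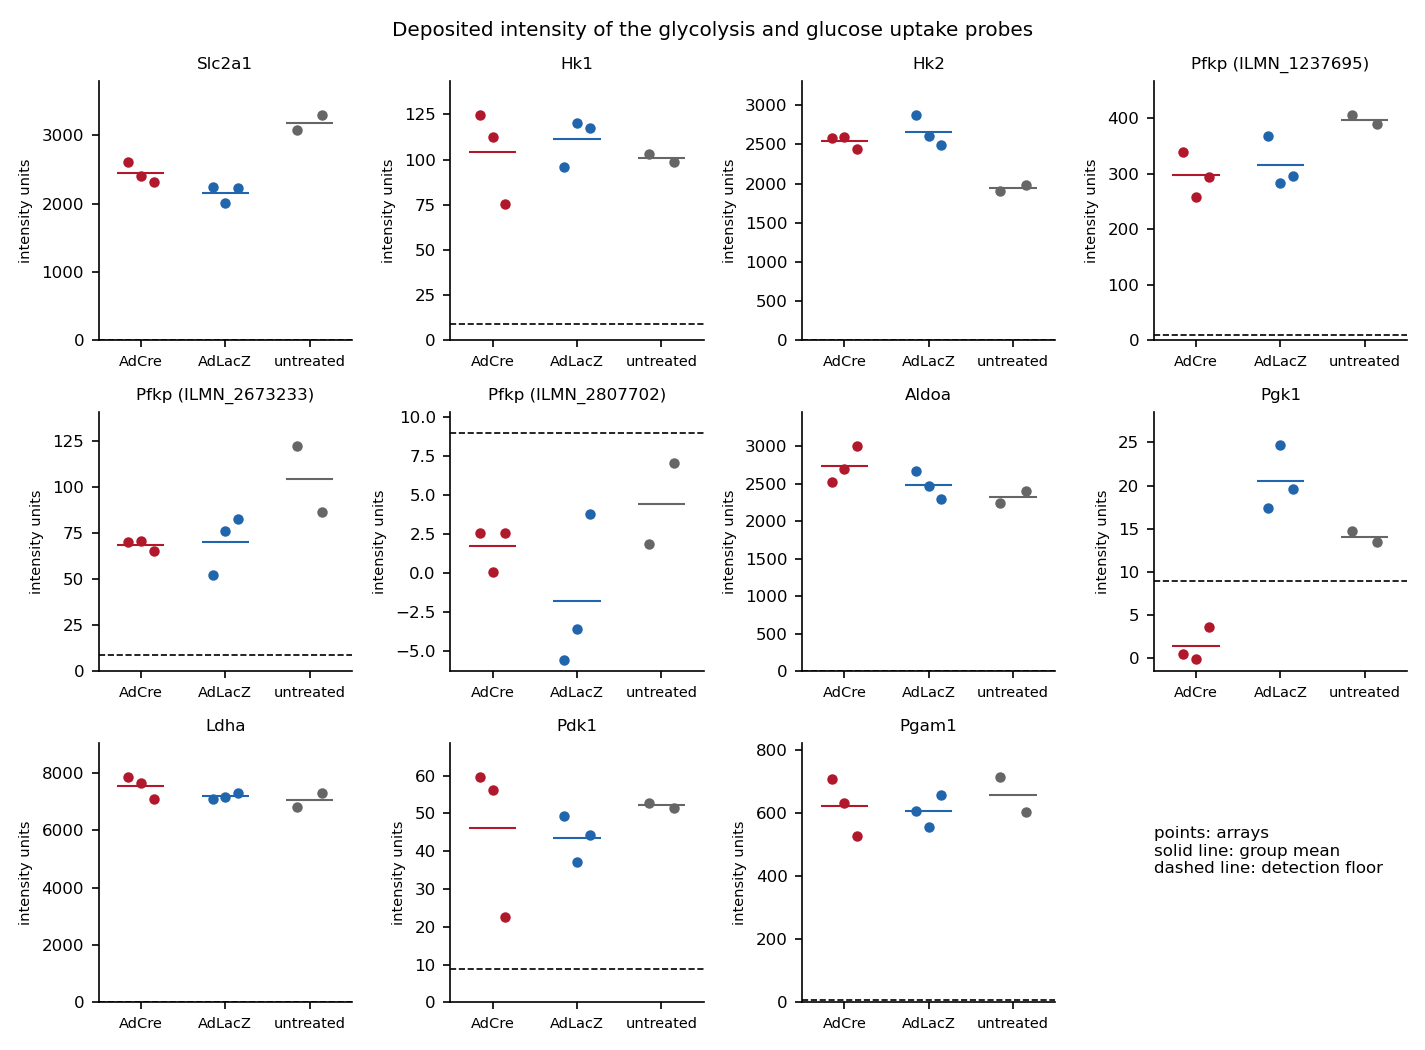
Deposited intensity (vertical axis, intensity units, linear) of the 11 member probes in the AdCre (n = 3), AdLacZ (n = 3) and untreated (n = 2) arrays. Points are arrays, solid lines are group means and the dashed line is the highest detection floor, 8.93 units. Slc2a1 is higher and Hk2 lower in untreated cells than in either virus arm, Pgk1 lies under the floor only in AdCre cells, and 1 Pfkp probe lies under it on all arrays.

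The comparison of AdCre with AdLacZ cells asks what Cre changes where Sox4 and Sox11 are floxed, with virus in both arms. Cre itself and the deletion cannot be told apart in this design. Most of the glycolytic route showed no difference that passed: of 10 member probes tested, 1 fell (Pgk1), 0 rose and 9 did not pass. Over all tested probes 5.03% passed in this comparison (1.59% as higher and 3.44% as lower), so that 1 call among 10 probes is near the background, and that probe read below the detection floor in all AdCre arrays. The median log2 change of the 10 probes was 0.0019, against 0.0106 over all tested probes. Values of the 2 groups did not overlap for 2 of the 10 probes, Slc2a1 and Pgk1, against 28.4% of all tested probes.

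Slc2a1 encodes GLUT1, the main glucose carrier of many embryonic cells. Its probe (ILMN_1258159) read 2609.9, 2413 and 2321 units in AdCre cells, against 2244, 2007 and 2226 units in AdLacZ cells and 3078 and 3295 units in untreated cells. All 6 virus-treated arrays were below both untreated arrays, and the AdCre arrays all lay above the AdLacZ arrays. The log2 change was 0.18 ± 0.10 in AdCre against AdLacZ cells (SE, limma adjusted p = 0.323, 95% interval -0.04 to 0.39), so that the separation of the virus arms did not pass.

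In AdLacZ against untreated cells, which compares the control virus with no virus, Slc2a1 fell by 0.56 ± 0.11 on the log2 scale (SE, 1.47-fold lower, limma adjusted p = 0.0166). It fell by 0.38 ± 0.11 in AdCre against untreated cells (1.30-fold lower, limma adjusted p = 0.0439). Over all tested probes 5.23% passed in AdLacZ against untreated cells (2.50% lower, 2.73% higher) and 13.7% in AdCre against untreated cells (7.08% lower, 6.61% higher). These comparisons share the untreated arrays. The labels give no time in culture for untreated cells, so virus and time cannot be told apart. The call in AdLacZ against untreated cells ended without AdLacZ replicate 2, untreated replicate 1 or untreated replicate 2 (limma adjusted p = 0.0571, 0.0845 and 0.0735). The call in AdCre cells ended without any single array of the 8 (limma adjusted p from 0.0519 to 0.166).

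The hexokinases Hk1 and Hk2 trap glucose as glucose 6-phosphate. Hk2, the inducible form, read 2577, 2595 and 2442 units in AdCre cells, 2873, 2609.9 and 2493 units in AdLacZ cells and 1905 and 1977 units in untreated cells. Every virus-treated array lay above both untreated arrays, while the virus arms overlapped. Hk2 rose by 0.45 ± 0.11 in AdLacZ against untreated cells (SE, 1.36-fold, limma adjusted p = 0.0379) and by 0.38 ± 0.11 in AdCre against untreated cells (1.30-fold, limma adjusted p = 0.038). Its direction is thus the opposite of that of Slc2a1. In AdCre against AdLacZ cells the change was -0.06 ± 0.10 (SE, limma adjusted p = 0.747, 95% interval -0.27 to 0.15).

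The Hk2 calls were close to the threshold. In AdLacZ against untreated cells Hk2 passed in 5 of 17 other settings, and among the fits that left out 1 array only without AdCre replicate 3 (limma adjusted p up to 0.215). In AdCre against untreated cells it also passed in 5 of 17, and among those fits only without AdLacZ replicate 1 (limma adjusted p up to 0.173). The sign was positive in all 17 settings of both comparisons. Hk1, the form found in most tissues, read 124.5, 112.4 and 75.6 units in AdCre cells, 96.1, 120.1 and 117.7 units in AdLacZ cells and 102.8 and 98.7 units in untreated cells. The Hk1 groups overlapped in all 3 comparisons and its changes lay between -0.09 and 0.11 (limma adjusted p from 0.760 to 0.957).

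Pfkp encodes the platelet-type subunit of phosphofructokinase, which catalyses the first committed step of glycolysis. Its brightest probe (ILMN_1237695) read 338.7, 257.5 and 295 units in AdCre cells, 367.7, 283.9 and 296.7 units in AdLacZ cells and 405.3 and 389.5 units in untreated cells. Its next probe (ILMN_2673233) read 70.4, 71.1 and 65.3 units in AdCre cells, 52.2, 76.1 and 83.1 units in AdLacZ cells and 122.4 and 86.4 units in untreated cells. Both probes were lower on every virus-treated array than on either untreated array. Against untreated cells the 2 probes changed by -0.39 ± 0.14 and -0.43 ± 0.16 in AdCre cells (SE, limma adjusted p = 0.0912 and 0.0987). In AdLacZ cells the changes were -0.31 ± 0.14 and -0.42 ± 0.16 (limma adjusted p = 0.236 and 0.156), so neither probe passed. The brightest probe did pass in AdCre against untreated cells with an offset of 50 (limma adjusted p = 0.0344) and with a trended, robust prior (0.0309). The remaining probe (ILMN_2807702) was below the floor on all 8 arrays, between -5.54 and 7.05 units, and was not tested. It gives no level for Pfkp, although the other 2 probes did.

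Aldoa encodes aldolase A, which splits fructose 1,6-bisphosphate. It read 2515, 2691 and 2996 units in AdCre cells, 2669, 2470.4 and 2288 units in AdLacZ cells and 2236 and 2399 units in untreated cells. The AdCre arrays all lay above the untreated arrays, but the change of 0.23 ± 0.12 did not pass (SE, limma adjusted p = 0.227). AdCre against AdLacZ cells differed by 0.14 ± 0.11 (SE, limma adjusted p = 0.483).

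Pgk1 encodes phosphoglycerate kinase 1, an ATP-forming enzyme of glycolysis. Its probe (ILMN_2797973) was dim: it read 0.508, -0.0681 and 3.58 units in AdCre cells, against 17.4, 24.8 and 19.6 units in AdLacZ cells and 14.7 and 13.4 units in untreated cells. No AdCre array reached the floor, whereas all AdLacZ and untreated arrays lay above it. The probe passed the filter through those 2 groups alone. Measured against the floor, Pgk1 was at least 1.30-fold lower in AdCre than in AdLacZ cells, on the scale that includes the offset (limma adjusted p = 0.00564). Against untreated cells it was at least 1.13-fold lower in AdCre cells (limma adjusted p = 0.0147). The measured log2 means were 4.95 ± 0.09 in AdCre cells, 5.65 ± 0.11 in AdLacZ cells (SD, n = 3 each) and 5.45 ± 0.03 in untreated cells (SD, n = 2). AdLacZ and untreated cells differed by 0.20 ± 0.11 (SE, limma adjusted p = 0.346).

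Because the probe entered the test through the groups in which it was high, its p value and its count are a description and no independent support. Between the virus arms the limma adjusted p reached 0.036 at most over 17 other settings. The fitted log2 change itself ranged from -3.73 without background correction to -0.37 with an offset of 50, so that only the bound is given as its size. That against untreated cells ended without AdCre replicate 2 (limma adjusted p = 0.0514), without untreated replicate 1 (0.0962) and with an offset of 50 (0.0572). A single probe measured this gene, at the lower edge of what the arrays detect, and its sequence was not used here. Whether it reads all Pgk1 transcripts was not tested.

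Of the members that act after Pgk1 on the way to lactate, Pgam1 and Ldha showed little change. Other enzyme genes of these steps are described further below. Pgam1 encodes phosphoglycerate mutase 1 and read 708.6, 633.6 and 529.3 units in AdCre cells, 606, 555.7 and 657.8 units in AdLacZ cells and 714.4 and 604.6 units in untreated cells. Ldha, the lactate dehydrogenase subunit that favours lactate formation, read 7846, 7643 and 7098 units in AdCre cells, 7098, 7147 and 7304 units in AdLacZ cells and 6825 and 7304 units in untreated cells. The groups overlapped for both genes in all 3 comparisons. The Ldha difference between AdCre and AdLacZ cells was 0.07 ± 0.09 (SE, limma adjusted p = 0.723), with a 95% interval from -0.14 to 0.27. For Pgam1 it was 0.03 ± 0.13 (limma adjusted p = 0.915, 95% interval -0.25 to 0.31).

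Pdk1, whose product inhibits pyruvate dehydrogenase, read 59.6, 56.2 and 22.7 units in AdCre cells, 49.3, 37.1 and 44.4 units in AdLacZ cells and 52.8 and 51.4 units in untreated cells. All AdLacZ arrays lay below both untreated arrays, without a pass (-0.16 ± 0.20, SE, limma adjusted p = 0.701). The AdCre arrays reached above and below both other groups, with an SD of 0.43 on the log2 scale in AdCre cells, against 0.12 in AdLacZ and 0.02 in untreated cells. Its change in AdCre against AdLacZ cells was 0.01 ± 0.18 (SE, limma adjusted p = 0.976, 95% interval -0.38 to 0.41).

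**Figure D2:**
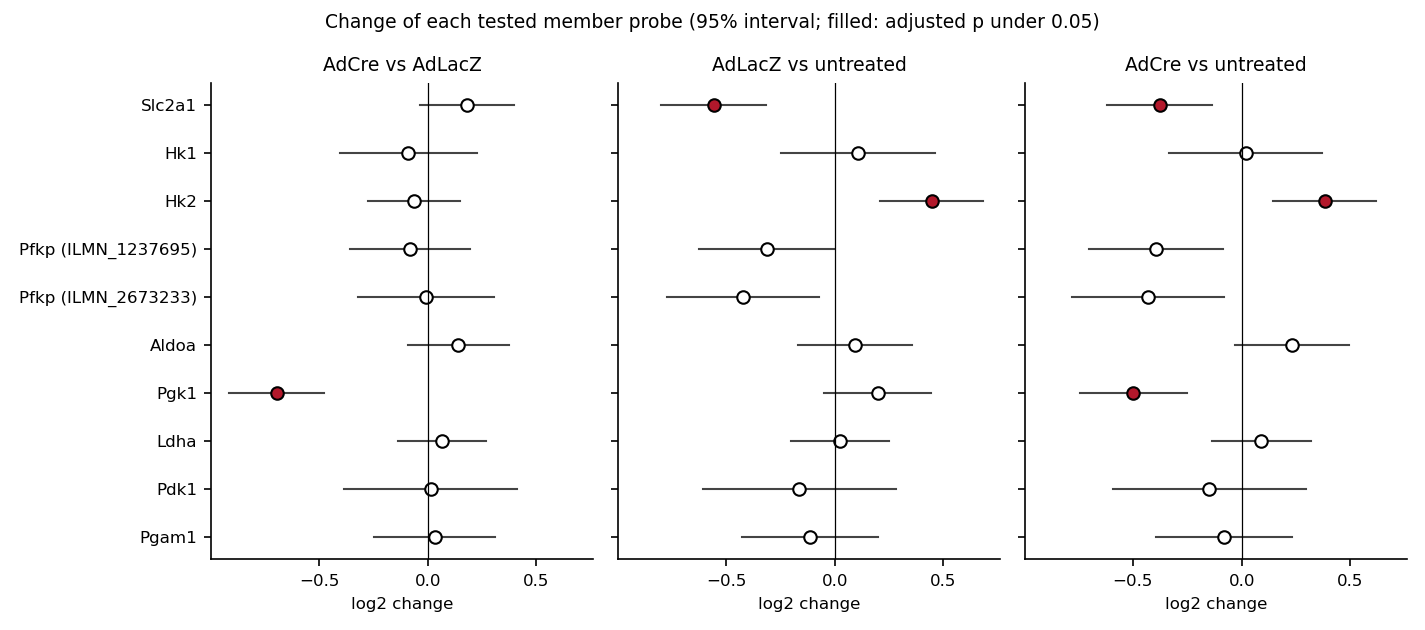
Log2 change (horizontal axis) of the 10 tested member probes in the 3 comparisons, the first named group minus the second. Circles are limma estimates, bars are 95% intervals and filled circles passed at an adjusted p under 0.05. Pgk1 alone is filled between the virus arms, and Slc2a1 (lower) and Hk2 (higher) are filled in both comparisons against untreated cells.

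Against untreated cells the calls among the 10 member probes were thus 1 lower and 1 higher in AdLacZ cells, and 2 lower and 1 higher in AdCre cells. Over all tested probes 5.23% passed in AdLacZ and 13.7% in AdCre against untreated cells. The median log2 change of the 10 was -0.04 in AdLacZ and -0.12 in AdCre cells, against -0.01 and 0.00 over all tested probes. Groups failed to overlap for 6 of the 10 member probes in AdLacZ against untreated cells, against 38.4% of all tested probes. It was also 6 of 10 in AdCre against untreated cells, against 43.3%. The transcripts of the carrier gene Slc2a1 and of the hexokinase gene Hk2 moved in opposite directions in both comparisons.

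The other enzymes of glycolysis included the genes that rose in all 3 comparisons. Of 17 genes looked for beyond the members, 13 had a probe and 9 were tested on their brightest probe. In AdCre against AdLacZ cells 2 rose and 0 fell (median 0.21, against 0.01 over all tested probes). In AdLacZ against untreated cells 2 rose and 0 fell (median 0.10, against -0.01), and in AdCre against untreated cells 4 rose and 0 fell (median 0.13, against 0.00). The shares of all tested probes that rose were 1.59%, 2.73% and 6.61% in the same order.

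Pgam2, the muscle form of phosphoglycerate mutase, read 244.5, 222.5 and 242.2 units in AdCre cells, 161.8, 139.5 and 140.7 units in AdLacZ cells and 108.9 and 90.8 units in untreated cells. The 3 groups did not overlap, in the order AdCre, AdLacZ and untreated from high to low. Pgam2 rose by 0.59 ± 0.10 in AdCre against AdLacZ cells (SE, limma adjusted p = 0.013), and by 1.04 ± 0.11 in AdCre against untreated cells (6.37e-04). In AdLacZ against untreated cells it rose by 0.45 ± 0.11 (0.0477). Eno3, the muscle form of enolase, kept the same order, with 813.3, 883.5 and 878.7 units in AdCre cells, 607.4, 649.9 and 583.1 units in AdLacZ cells and 382.2 and 442.1 units in untreated cells. It rose by 0.47 ± 0.10 in AdCre against AdLacZ cells (SE, limma adjusted p = 0.0256), by 1.01 ± 0.11 in AdCre against untreated cells (6.37e-04) and by 0.54 ± 0.11 in AdLacZ against untreated cells (0.0198). The neuronal enolase gene Eno2 rose in AdCre against untreated cells (0.79 ± 0.12, limma adjusted p = 0.00289).

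These calls were not equally firm. Between the virus arms Pgam2 passed in 15 of 17 other settings and lost its call without AdLacZ replicate 2 or 3 (limma adjusted p up to 0.0563). Eno3 passed there in 9 of 17 and lost its call without any single AdCre or AdLacZ array (limma adjusted p up to 0.0954). The Pgam2 call in AdLacZ against untreated cells ended without any single array, and that of Eno3 without AdLacZ replicate 1 or 2 or untreated replicate 1 (limma adjusted p up to 0.178). Pgam2, Eno2 and Eno3 passed in all 17 in AdCre against untreated cells. Whether Pgam2 differed in its change from the member Pgam1 was not tested. The fourth riser in AdCre against untreated cells was Pfkm, the muscle form of phosphofructokinase (0.47 ± 0.12, limma adjusted p = 0.0241). This call ended without AdCre replicate 1 or 2 or untreated replicate 1 (limma adjusted p up to 0.189). A dimmer Pfkm probe (ILMN_3004553) rose by 0.75 there and by 0.64 in AdLacZ against untreated cells (limma adjusted p = 0.00236 and 0.0102), and the dimmest gave -0.09 and did not. Of Tpi1, triose phosphate isomerase, the brightest probe did not pass (0.13), and another probe gave -0.55 in AdCre against untreated cells (limma adjusted p = 0.0122).

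Some skeletal muscle markers differed beside these muscle-form enzymes. In AdCre against AdLacZ cells 2 of 7 tested muscle markers rose and 0 fell, Acta1 (0.55 ± 0.11, SE, limma adjusted p = 0.0225) and Des (0.54 ± 0.10, 0.0166), which encode muscle actin and desmin. None of the 7 passed in AdLacZ against untreated cells (limma), and in AdCre against untreated cells 3 rose and 0 fell. The share of all tested probes that rose was 1.59% between the virus arms and 6.61% in AdCre against untreated cells. The summed corrected intensity of the 7 was 32154 to 34283 units in AdCre cells, 26592 to 29560.3 units in AdLacZ cells and 23150.1 to 25679 units in untreated cells. The myogenic factor genes Myod1 and Myog did not pass in any comparison and gave -0.23 and -0.19 in AdCre against AdLacZ cells, and Myf5 was not above the floor. The part of muscle cells in the enzyme values was not tested, and more cells of a type and more RNA per cell cannot be told apart in such samples.

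**Figure D3:**
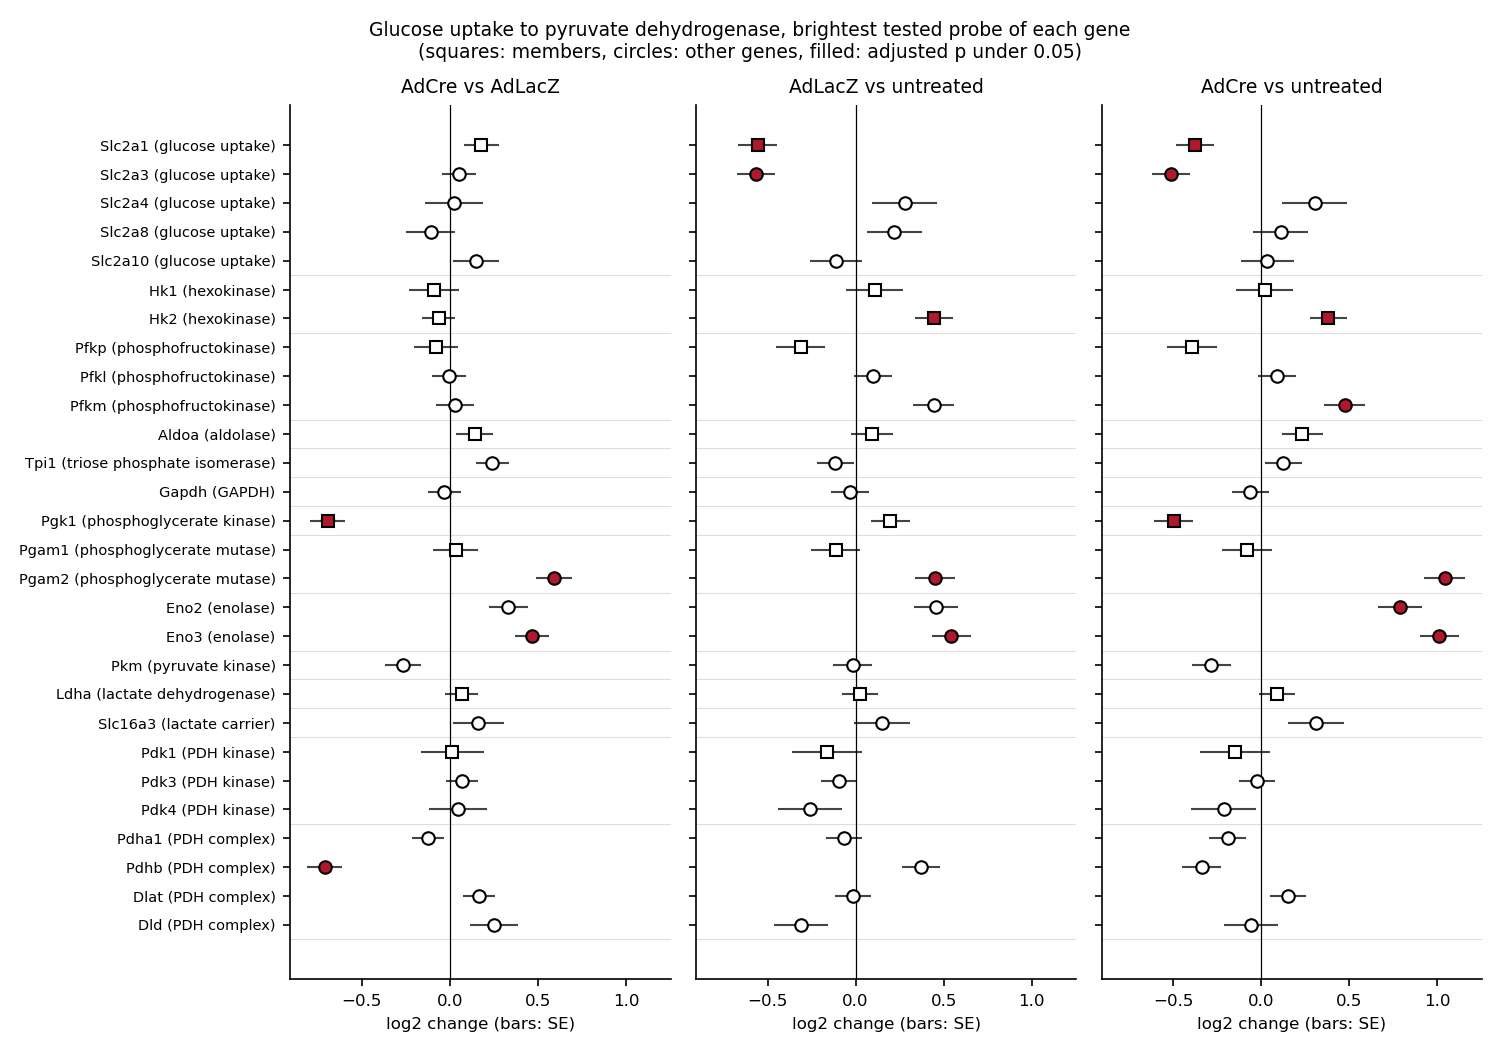
Log2 change (horizontal axis, bars are SE) for genes ordered from glucose uptake to the pyruvate dehydrogenase (PDH) complex, on the brightest tested probe of each gene, in the 3 comparisons. Squares are members, circles are other genes and filled symbols passed at an adjusted p under 0.05. Pgam2 and Eno3 are filled on the higher side in every panel, and Slc2a1 and Slc2a3 on the lower side in the panels against untreated cells.

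Among 6 tested carriers of glucose and lactate other than Slc2a1, of 11 looked for, 0 passed in AdCre against AdLacZ cells. Over all tested probes 2.50% fell in AdLacZ and 7.08% in AdCre against untreated cells, and 1 of the 6 carriers fell in each. This was Slc2a3, which encodes the high-affinity glucose carrier GLUT3. It read 933.5, 869.4 and 849.9 units in AdCre cells, 885.4, 808.4 and 860.2 units in AdLacZ cells and 1343 and 1205 units in untreated cells. Slc2a3 fell by 0.51 ± 0.11 in AdCre against untreated cells (SE, limma adjusted p = 0.0113) and by 0.56 ± 0.11 in AdLacZ against untreated cells (0.0142). The transcripts of both carrier genes, Slc2a1 and Slc2a3, were thus lower in both virus arms than in untreated cells. Without untreated replicate 1 both Slc2a3 calls ended (limma adjusted p = 0.0962 in AdCre and 0.137 in AdLacZ cells), and the call in AdLacZ cells also ended without AdLacZ replicate 2.

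Macrophage markers, and in part erythroid ones, were also lower in virus-treated cells. Against untreated cells, 6 of 8 tested macrophage markers fell in AdCre cells and 3 fell in AdLacZ cells, and 0 rose in either. Over all tested probes 7.08% fell in AdCre and 2.50% in AdLacZ against untreated cells, and 3.44% between the virus arms. Fcer1g was above the floor on the untreated arrays alone, and C1qa on no AdCre array. Both entered the test through groups in which they were high, so their part in the counts is a description. The summed corrected intensity of the 8 macrophage markers was 367.7 to 377.8 units in AdCre cells, 389.7 to 428.6 units in AdLacZ cells and 1017 to 1458 units in untreated cells. Of 6 tested erythroid markers, 4 fell in AdCre and 1 (Hbb-bh1) fell in AdLacZ against untreated cells, 3 fell in AdCre against AdLacZ cells and 0 rose in any. Those that fell were globin genes, and Slc4a1 and Klf1 did not pass in any comparison. The summed intensity of the 6 was 1414 to 1982 units in AdCre cells, 4267 to 4834 units in AdLacZ cells and 6190 to 7308 units in untreated cells. The macrophage marker Ptprc and the erythroid marker Alas2 were not above the floor. The erythroid sum also differed between the virus arms. The part of these cells in the carrier values was not tested.

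**Figure D4:**
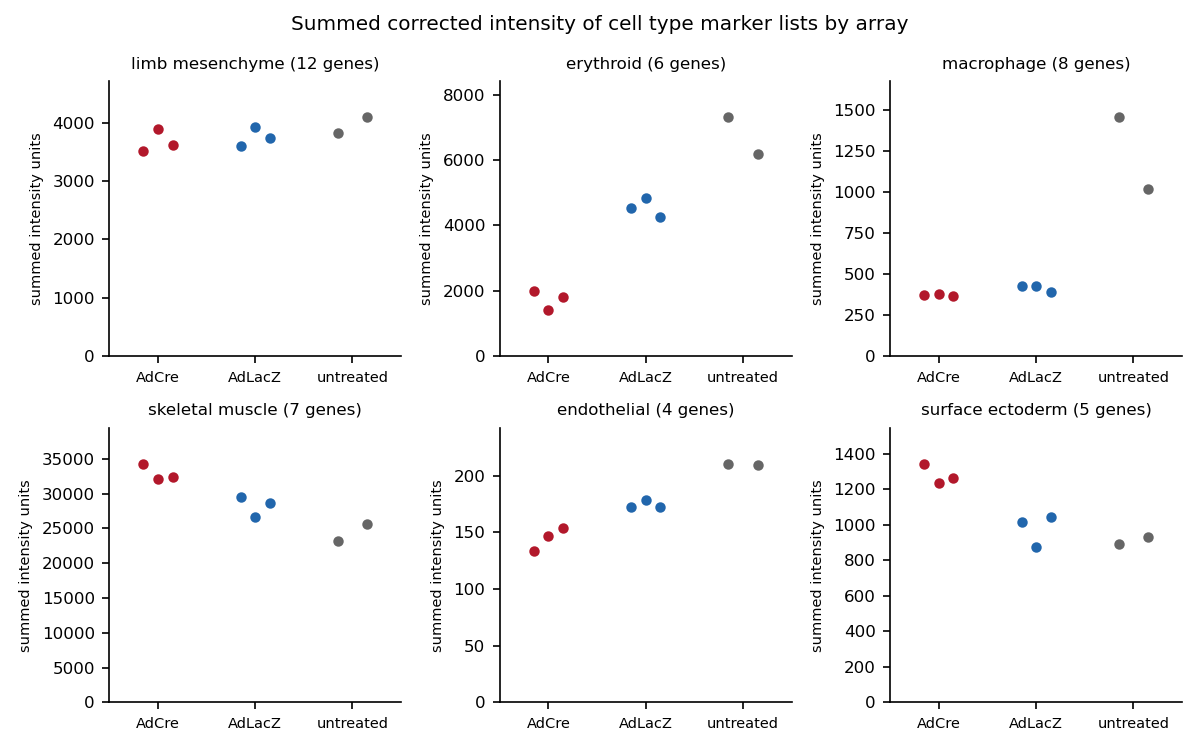
Summed corrected intensity (vertical axis, intensity units, linear from 0) of the tested marker genes of 6 cell types on each array, by group. Points are arrays. The macrophage sum is 1017 to 1458 units in untreated cells and at most 428.6 units in both virus arms, and the muscle sum is highest in AdCre cells.

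Among 13 tested regulators of glycolysis and of pyruvate entry into mitochondria, only 1 passed between the virus arms, against 5.03% of all tested probes, and it fell. This was Pdhb, a subunit of pyruvate dehydrogenase, with 434.5, 428.8 and 425.6 units in AdCre cells, 678.1, 754 and 736.5 units in AdLacZ cells and 597.4 and 509 units in untreated cells. The fall was 0.71 ± 0.10 between the virus arms (SE, limma adjusted p = 0.00524) and passed in all 17 other settings. A dimmer Pdhb probe gave -0.02 (limma adjusted p = 0.952), so that the 2 probes disagree. Against untreated cells, 2 rose and 1 fell in AdCre cells, where 6.61% of all tested probes rose and 7.08% fell. Pfkfb2 and Pfkfb4, which set the level of the phosphofructokinase activator fructose 2,6-bisphosphate, rose by 0.66 ± 0.14 and 0.51 ± 0.12 (SE, limma adjusted p = 0.0117 and 0.0173). The pyruvate dehydrogenase phosphatase gene Pdp2 fell by 0.37 ± 0.10 (limma adjusted p = 0.0363), but this call ended without any single array of the 8 (limma adjusted p up to 0.138). A dimmer Pdp2 probe gave -0.13 and did not pass. The Pfkfb2 call ended without untreated replicate 2, and that of Pfkfb4 without AdCre replicate 2 or untreated replicate 1 (limma adjusted p up to 0.0724 and 0.12). None passed in AdLacZ against untreated cells (limma), where Pdhb was nearest the threshold at 0.37 ± 0.11 (SE, limma adjusted p = 0.0822). Of 8 tested genes of the pentose phosphate pathway and gluconeogenesis, 0 passed in any comparison in the limma fit on the brightest probe. A dimmer probe of the glucose 6-phosphatase gene G6pc3 was below the floor on all AdCre and AdLacZ arrays and entered the test through the untreated arrays alone. Measured against the floor, it was at least 1.05-fold lower in AdCre than in untreated cells, on the scale that includes the offset (limma adjusted p = 0.0376). That p value is a description and no independent support. The brighter G6pc3 probe gave 0.26 in this comparison (limma adjusted p = 0.229).

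Hif1a, which encodes the regulated subunit of HIF-1, read 135.2, 145.3 and 127.7 units in AdCre cells, 164.3, 186.6 and 198 units in AdLacZ cells and 283.1 and 226.3 units in untreated cells. The groups did not overlap, with AdCre lowest and untreated highest. Hif1a fell by 0.77 ± 0.12 in AdCre against untreated cells (SE, limma adjusted p = 0.0033) and passed there in all 17 other settings. The changes of -0.36 ± 0.11 between the virus arms and -0.42 ± 0.12 in AdLacZ against untreated cells did not pass (limma adjusted p = 0.0935 and 0.0854). Among the 20 tested genes of the HIF pathway and its targets outside glycolysis, Hif1a included, 0 passed in the other 2 comparisons (limma). Against untreated cells, 3 rose and 1 fell in AdCre cells, where 6.61% of all tested probes rose and 7.08% fell. The risers were the collagen prolyl hydroxylase genes P4ha1 (0.72 ± 0.13, SE, limma adjusted p = 0.00468) and P4ha2 (0.51 ± 0.13, 0.0248) and the HIF prolyl hydroxylase gene Egln3 (0.41 ± 0.10, 0.0275). A dimmer Egln3 probe gave -0.03 and did not pass. The Egln3 call ended without any single AdCre or untreated array, and that of P4ha2 without AdCre replicate 1 or 2 or untreated replicate 1 (limma adjusted p up to 0.107 and 0.203). That of P4ha1 ended without untreated replicate 1 (0.0556).

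Myc, whose product is known to activate glycolytic genes in many cells, read 69.7, 82.8 and 76.5 units in AdCre cells, 115.9, 104.4 and 98.5 units in AdLacZ cells and 123.8 and 142.7 units in untreated cells. It fell by 0.62 ± 0.11 in AdCre against untreated cells (SE, limma adjusted p = 0.00619), and the change of -0.36 ± 0.10 between the virus arms did not pass (0.0702). Mycn was not above the floor on enough arrays to be tested. Mycl, a further family member, fell by 0.58 ± 0.10 in AdCre against AdLacZ cells (SE, limma adjusted p = 0.013), a call that ended without AdLacZ replicate 2 or 3 (up to 0.0563). It rose by 0.48 ± 0.11 in AdLacZ against untreated cells (limma adjusted p = 0.0364), a call kept among fits without 1 array only without AdCre replicate 3 or AdLacZ replicate 1 (up to 0.251). Of the 4 tested genes of the MYC family 1 fell between the virus arms, 1 rose and 1 fell in AdLacZ against untreated cells (Mxd4, -0.67, limma adjusted p = 0.0438), and 1 fell in AdCre against untreated cells. Over all tested probes 5.03%, 5.23% and 13.7% passed in the same order. The Mxd4 call was kept among such fits only without AdCre replicate 2 or 3 (limma adjusted p up to 0.312). Max, the shared partner of these factors, did not pass on its brighter probe (0.07 and -0.18 in AdCre and AdLacZ against untreated cells). Its dimmer probe (ILMN_3068231) fell by 0.84 ± 0.17 in AdCre and by 0.92 ± 0.17 in AdLacZ against untreated cells (SE, limma adjusted p = 0.00913 and 0.0117), so that the 2 probes disagree.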

How the data were processed

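The deposited table gives 1 intensity per probe and array, which the authors had subtracted for background and put on a shared distribution by a method not given in the sources used here. This shows in the values: 25.7% lie below 0 and at equal rank the columns lie within 0.19 units of each other. BeadStudio 2.1 was used, per the submitters' processing notes. The arrays of another table, with 32 columns of per-sample values, are named by chip position, which matches no label, so those columns and their detection p values were not used. Intensities were corrected with normexp in limma 3.58.1 (R 4.3.3, offset 16) and put on the log2 scale. The floor was 1.645 times an SD from the negative values mirrored around 0. lmFit and eBayes were run on all 8 arrays with a term for each of 3 groups. Probes passed at a 2-sided Benjamini-Hochberg adjusted p under 0.05 over 15944 tested probes. Symbols came from the platform annotation, and 23962 of 23978 named probes were matched to current symbols through the RefSeq table. For other genes the brightest tested probe was used. The members, gene lists and tests were chosen with earlier results of these data known. All member probes are named, with up to 4 passing genes per list and comparison by smallest p, and Hif1a, Myc and Mycn. Arrays with the same replicate number did not deviate together, so no pairing was used. The alternatives concerned background correction, offset, normalization, filters, array weights, the prior, the groups fitted, a replicate block and each array. Matplotlib 3.10.9 drew the figures.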

Additional observations from a re-analysis of the deposited data

How the results depend on the processing

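Each of 30 member changes was refitted in 17 other settings. All 6 that passed kept their direction in every setting, and Pgk1 between the virus arms, a probe tested through the groups in which it was high, was the 1 that also passed in every one. Of the 24 that did not pass, 23 did not pass in any setting, Pfkp (ILMN_1237695) being the exception. The counts depend on the setting. In AdCre against AdLacZ cells 802 probes passed, but 243 without background correction, 1420 with an offset of 50, 406 without a filter, 1432 with a trended, robust prior, 498 with the replicate block and 192 to 774 when 1 array was left out. In AdLacZ against untreated cells, 834 became 262, 1440, 486, 1500 and 442 in the same order, and 168 to 849 when 1 array was left out. In AdCre against untreated cells, 2183 became 1327 without background correction and 712 to 2008 when 1 array was left out. Lowest were the fits without AdLacZ replicate 2 (192) and without untreated replicate 1 (168 and 712). Member calls in AdLacZ against untreated cells numbered 2, but 0 without background correction and with the replicate block, 1 without a filter, with array weights and with only 2 groups, and 0 to 2 when 1 array was left out. In AdCre against untreated cells they numbered 3, but 1 in each of these 5 settings and 0 to 2 when 1 array was left out. The replicate block kept the 1 member call between the virus arms and ended that of Slc2a1 in AdLacZ against untreated cells (limma adjusted p = 0.0605). Same-numbered arrays did not deviate together (AdCre and AdLacZ pairs, r = 0.0225, -0.0014 and -0.0569), so the block rests on a number alone. Changes that did not pass and turned sign in some setting lay between -0.15 and 0.03 in the main fit. Pfkp (ILMN_2673233) in AdCre against AdLacZ cells gave 0.0081 with array weights, and Pdk1 gave -0.0322 without background correction. When 1 array was left out, the AdCre against AdLacZ changes ranged from -0.20 to 0.0745 for Hk1, -0.17 to 0.0231 and -0.15 to 0.083 for the Pfkp probes, -0.12 to 0.26 for Pdk1 and -0.0601 to 0.14 for Pgam1. In AdLacZ against untreated cells they ranged from -0.0242 to 0.0734 for Ldha and -0.23 to 0.0014 for Pgam1. In AdCre against untreated cells they ranged from -0.093 to 0.18 for Hk1, -0.29 to 0.10 for Pdk1 and -0.20 to 0.0339 for Pgam1. The cause of these shifts was not tested.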

Other observations

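An Eno1b probe, annotated with Eno1 as an older name of its gene, lies outside the 11 probes and was looked at after the members. The RefSeq table lists Eno1 as a gene, and whether this probe reads Eno1 transcripts was not tested. The Eno1b probe read 205.8, 174.9 and 152.4 units in AdCre cells, 241.1, 234.4 and 223.5 units in AdLacZ cells and 184.5 and 254.5 units in untreated cells. The AdCre arrays all lay below the AdLacZ arrays, but the change of -0.35 did not pass (limma adjusted p = 0.155).

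Among the AdCre arrays, replicate 3 was the lowest for 7 of the 10 tested member probes and replicate 1 the highest for 6. Over the 8 arrays, the genes whose log2 level correlated most closely with the mean scaled level of the member probes were Slfnl1 (r = 0.98), Ppa2, Snx11 and Tmem144 (0.95 each), and Klf5 and Srm (0.94 each). These are descriptions over 8 arrays that share the same hybridisations, picked as the highest of many genes.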
